A study of Mus musculus with 6 samples.

Results

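Ligands that decide whether a T cell is switched on or held back were followed across the myeloid cells of mouse colon tumors. The set held 10 genes, taken as a named list with earlier results of these data known, out of 20649 genes in the deposited count matrix. They were Cd274, Cd80, Cd86, Pvr, Nectin2, Lgals9, Vsir, Icosl, Cd40 and Ido1. All 10 were in the matrix, with 36351 UMIs (unique molecular identifiers, 1 per captured transcript) of Cd274 over all barcodes and 79 UMIs of Ido1. On mm10 (GENCODE M21) Cd274 lies at chr19:29367455-29388095, and pairs of the set lie near each other: Cd80 (chr16:38455561-38496335) with Cd86 (chr16:36603869-36666081), and Pvr (chr7:19903578-19921160) with Nectin2 (chr7:19716644-19750483).

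The cells came from CT26 tumors, a colon carcinoma line of BALB/c mice, grown under the skin after injection of 500000 cells per mouse. The tumors of 3 mice received exosomes carrying a control oligonucleotide (exoASO-Scramble) and those of 3 mice exosomes carrying an antisense oligonucleotide against Stat6 (exoASO-STAT6), both injected into the tumor 3 times on alternate days and collected 24 h after the last dose. CD45 positive cells, the white blood cells, were enriched with a kit and their 3′ transcript ends were counted in single cells with the 10x Chromium v3.1 chemistry. The mice were female and 6 to 8 weeks old at purchase. The 9235 barcodes carried suffixes 3 to 8, which matched no sample label, so a suffix is used here as the name of 1 of 6 libraries whose treatment was not assigned, and the 2 treatments were not compared.

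The libraries held 867 to 2017 barcodes and 11492757 to 33902084 UMIs, and 16 barcode sequences were found in 2 libraries. Levels are given as UMIs per 1000000 UMIs (CPM). Stat6, the gene that the oligonucleotide targets, was at 66.1, 59.3, 75.0, 52.4, 43.0 and 54.2 CPM in the macrophages of suffixes 3 to 8. Cd274 was at 172, 192, 144, 465, 288 and 230 CPM in the same macrophages. Suffixes 6 to 8 were thus lower in Stat6 and higher in Cd274 than suffixes 3 to 5, and the cause was not tested. The macrophages with suffix 6 stood apart, with 3271 CPM summed over 13 type I interferon response genes against 1441 to 1922 CPM in the other libraries. Of the macrophages with suffix 6, 39.6% were in the interferon state defined below, against 7.82 to 17.1% elsewhere. Key values are therefore also given without this library.

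A T cell reads activating and inhibitory signals from the cell that presents antigen to it. The B7 molecules CD80 and CD86 engage CD28 to activate the T cell and CTLA-4 to restrain it, and ICOSL engages ICOS. CD40 on the presenting cell receives help from CD40L on T cells. PD-L1 (encoded by Cd274) restrains T cells through PD-1, VISTA (Vsir) is a further inhibitory B7 family member, and galectin-9 (Lgals9) binds TIM-3. The nectins CD155 (Pvr) and CD112 (Nectin2) bind the activating receptor DNAM-1 and the inhibitory receptor TIGIT. IDO1 degrades tryptophan to kynurenine and so deprives T cells of an amino acid. Interferon-γ is a known inducer of PD-L1, and tumor macrophages and dendritic cells are main carriers of these ligands.

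Promoter sequence was matched for 6 of the 10 genes in RefSeq (build GRCm38.p6, the mm10 assembly), as windows from 250 bases before to 50 bases after the RefSeq start of the gene. This start lay 3372 bases inside the GENCODE gene given above for Cd80 and 910 bases inside it for Nectin2, and within 66 bases of the GENCODE start for the other 4 genes, so the windows of Cd80 and Nectin2 do not cover the outermost start. Cd86, Pvr, Cd40 and Ido1 were not matched. Each window was searched on both strands for the interferon regulatory factor core AANNGAAA, for the longer interferon stimulated response element GAAANNGAAA, which contains the core, for the gamma activated site TTCNNNGAA, and for TTCNNNNGAA, the wider spacing known for STAT6. Over 32851 promoter windows of the same length, 23.9% held the core, 3.44% the response element, 8.30% the gamma activated site and 6.95% the wider site. The windows of Cd274 and Lgals9 are printed because the report turns on how these 2 ligands followed the interferon genes. The Cd274 window is chr19:29367188-29367487 (plus strand) and the Lgals9 window chr11:78984875-78985174 (minus strand). They are given 5′ to 3′ on the strand of the gene with the matches in capitals.
Cd274: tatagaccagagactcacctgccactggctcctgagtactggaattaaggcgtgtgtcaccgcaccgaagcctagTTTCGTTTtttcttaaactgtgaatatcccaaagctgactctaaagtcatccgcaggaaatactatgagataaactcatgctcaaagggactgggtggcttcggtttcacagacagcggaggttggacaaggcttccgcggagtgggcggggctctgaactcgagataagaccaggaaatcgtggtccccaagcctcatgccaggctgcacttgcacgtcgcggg
Lgals9: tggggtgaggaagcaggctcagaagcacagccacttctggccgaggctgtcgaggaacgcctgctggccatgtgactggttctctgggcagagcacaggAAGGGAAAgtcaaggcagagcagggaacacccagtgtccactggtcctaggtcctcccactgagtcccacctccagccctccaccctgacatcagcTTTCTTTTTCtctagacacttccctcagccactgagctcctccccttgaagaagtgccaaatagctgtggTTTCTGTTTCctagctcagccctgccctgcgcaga
The Cd274 window held 1 core match, whose first base lay 175 bases before the RefSeq start. The Lgals9 window held 3 core matches, of which 2 were also response element matches, 1 beginning 55 bases before the start and 1 beginning 15 bases after it. The window of Cd80 held 1 core match, 30 bases after the RefSeq start, and the windows of Nectin2, Vsir and Icosl held none. No gamma activated site and no wider site was found in any of the 6 windows. A match describes these letters only and was not tied to binding.

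Cell groups were formed from the UMIs of a few marker genes per barcode, and barcodes that met 2 or more of the 5 gates (728 barcodes) were left out. Macrophages carried at least 3 UMIs of Csf1r and Adgre1 together and no Cd3e or Ncr1 (3996 barcodes, median 12570.5 UMIs). Mature dendritic barcodes carried Ccr7 and Fscn1 (73), type 1 dendritic barcodes at least 2 UMIs of Xcr1 and Clec9a together (76), neutrophil barcodes at least 5 UMIs of S100a9 (450) and B barcodes at least 2 UMIs of Cd79a (45). Macrophages were split by which of C1qa (complement, resident-like), Ly6c2 (inflammatory monocyte), Rsad2 (interferon response) and Mmp12 (matrix protease) stood highest against the mean of all macrophages. This gave 1590 C1qa, 926 Ly6c2, 629 Rsad2 and 562 Mmp12 macrophages, and 289 barcodes in which none stood above the mean. In 628 macrophages the leading gene was ahead of the next by under 0.25 standard deviations, so the states are ranges and not separate types.

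The labels of the groups were compared with marker lists. The summed macrophage markers were at 6639 CPM in macrophages and at 190 CPM in natural killer (NK) barcodes, a reference gate that excludes Csf1r and Adgre1. Many barcodes left in the other myeloid gates also carried lymphocyte transcripts, a share that the rule on overlapping gates raised. Of the 450 neutrophil barcodes, 334 held a Cd3e or Ncr1 UMI, and 314 of those also held 3 or more UMIs of Csf1r and Adgre1. Before barcodes meeting several gates were left out, 1049 barcodes passed the neutrophil gate and 34.0% of them held such a UMI. Of the 1049, 571 also met the macrophage gate, which requires no Cd3e and Ncr1, and were dropped, so barcodes rich in Csf1r and Adgre1 could stay only where they held Cd3e or Ncr1. A Cd3e or Ncr1 UMI was also held by 24 of 73 mature dendritic, 35 of 76 type 1 dendritic and 9 of 45 B barcodes. Such barcodes had more UMIs, with a median of 28763.5 in the neutrophil gate against 7670 in the rest of it. The main results for these 4 groups are therefore also given for the barcodes without Cd3e and Ncr1, called restricted here, a condition that was added after these values were seen. Restriction left 116 neutrophil, 49 mature dendritic, 41 type 1 dendritic and 36 B barcodes. It raised the summed neutrophil markers from 4092 to 10960 CPM and the mature dendritic markers from 3178 to 7195 CPM, and it lowered the macrophage markers in the mature dendritic group from 2731 to 437 CPM. The gated type 1 dendritic group held more of the macrophage markers (3373 CPM) than of its own (2991 CPM), and restriction changed these to 653 and 5003 CPM. In the gated neutrophil group the macrophage markers were at 4738 CPM, above its own as well. These lists hold genes that the gates use, and a gate on a fixed number of UMIs raises their CPM in the shallower restricted barcodes by construction. Without the gate genes (S100a9, Ccr7 and Fscn1) the neutrophil markers went from 1862 to 5083 CPM and the mature dendritic markers from 1335 to 3057 CPM. In the type 1 group the lists without Xcr1, Clec9a, Csf1r and Adgre1 gave 3067 CPM of macrophage and 2672 CPM of type 1 markers, and 616 and 4357 CPM after restriction. By the same rule no restricted barcode could hold 3 UMIs of Csf1r and Adgre1 together, so the lower macrophage markers were set in part by the gates and are not evidence of the groups' identity. The restricted neutrophil group still held macrophage markers at 3256 CPM.

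Because the matrix is 1 pooled sample, no test was made. A difference is called here when the pooled CPM of the groups differed at least 2-fold and in the same direction in every library with at least 10 barcodes in both groups. Intervals are 95% exact Poisson intervals and cover counting error alone, not differences between animals.

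Cd274, the gene of PD-L1, was lowest in C1qa and highest in Rsad2 macrophages. In C1qa macrophages it was at 134, 138, 107, 212, 174 and 143 CPM in the libraries with suffixes 3 to 8. In Mmp12 macrophages the same libraries gave 200, 261, 121, 353, 303 and 210 CPM. In Ly6c2 macrophages they gave 239, 295, 218, 440, 411 and 304 CPM. In Rsad2 macrophages they gave 261, 384, 254, 636, 571 and 455 CPM. The order C1qa, Mmp12, Ly6c2, Rsad2 thus held inside every one of the 6 libraries, although the ranges of neighboring states overlapped between libraries. Pooled, Cd274 was at 499 CPM in Rsad2 macrophages (interval 484 to 514) against 206 CPM in the other macrophages, a 2.42-fold difference (interval 2.33 to 2.50) that was called.

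In C1qa macrophages Cd274 was at 144 CPM (interval 140 to 149) against 343 CPM in the other macrophages, 2.38-fold lower, lower in 6 of 6 libraries and called. Of the 11643 genes compared, 1.03% were called higher and 1.09% lower in Rsad2 macrophages, and 3.55% were called higher and 3.13% lower in C1qa macrophages. Of the 9 ligands compared, Cd274 was the one called in these states. Cd80 fell just short in C1qa macrophages, at 16.9 against 33.6 CPM in the others, 1.99-fold lower (interval 1.78 to 2.22) and lower in 6 of 6 libraries. It was called lower there without suffix 4, 6 or 8, with libraries weighted equally, with a lead of 0.5 standard deviations for a state, and without barcodes holding other lymphocyte genes. Of 13 type I interferon genes, 12 were called higher in Rsad2 macrophages, a state that was itself defined by a type I interferon gene. The ratio of Rsad2 to C1qa macrophages was 3.45 pooled (interval 3.31 to 3.61) and 1.96 to 3.29 inside single libraries. The pooled ratio lay above all 6 single-library ratios, and the library with suffix 6, with the highest Cd274 level, gave 211 of the 629 Rsad2 macrophages. Without that library the ratio was 2.94 and Cd274 was still called in both states. With all libraries given equal weight the ratio was 2.83, and the difference between Rsad2 macrophages and the rest fell short of 2-fold and was not called.

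**Figure D1:**
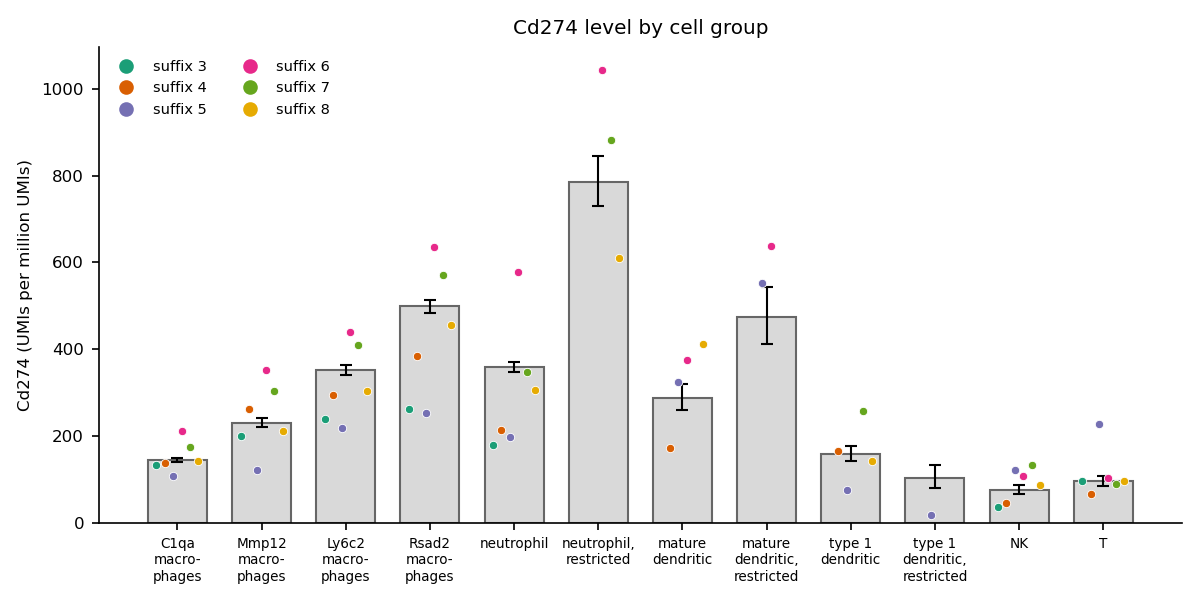
Cd274 level (UMIs per 1000000 UMIs, vertical axis) in the macrophage states, the other myeloid gates before and after restriction to barcodes without Cd3e and Ncr1, and NK and T barcodes. Bars are pooled values with 95% Poisson intervals and colored points are libraries with at least 10 barcodes; Rsad2 macrophages (499 CPM) stood above C1qa macrophages (144 CPM), and the pooled level of restricted neutrophils (785 CPM), with 101 of 116 barcodes from suffixes 6 to 8, was the highest shown.

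The other ligands followed different states. Lgals9, which encodes the TIM-3 ligand galectin-9, was at 178, 208, 188, 266, 163 and 203 CPM in Rsad2 macrophages of the 6 libraries and at 105 to 141 CPM in C1qa macrophages, with no overlap. Against all other macrophages it was 1.78-fold higher (219 against 123 CPM, interval 1.69 to 1.88, 6 of 6 libraries), which missed the 2-fold limit. Cd40, the receptor for T cell help, was 1.48-fold higher in Rsad2 macrophages (85.5 against 57.8 CPM, 6 of 6 libraries) and 1.51-fold lower in Mmp12 macrophages (43.1 against 65.1 CPM, 6 of 6 libraries). Vsir went the other way in the Rsad2 state, at 82.2 against 102 CPM, lower in 6 of 6 libraries by 1.24-fold.

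Cd86, Pvr, Nectin2 and Vsir had their highest pooled level among the 4 states in Ly6c2 macrophages, which held the highest level of each in 5 of 6 libraries. Cd80 was at 36.5 CPM there and at 39.1 CPM in Mmp12 macrophages in the pool, but Ly6c2 macrophages held more of it in 4 of 6 libraries, at 46.7 against 29.1, 58.6 against 48.2, 59.2 against 45.3 and 39.0 against 29.8 CPM in suffixes 3, 4, 5 and 8. The library with suffix 6, where Cd80 was at 18.8 CPM in Ly6c2 macrophages, gave 199 of the 926 Ly6c2 but 34 of the 562 Mmp12 macrophages. Cd86 was at 168, 194, 129, 84.0, 131 and 141 CPM in Ly6c2 macrophages and at 74.9, 111, 83.1, 70.4, 85.4 and 71.5 CPM in C1qa macrophages of the same libraries. Against all other macrophages Cd86 was 1.37-fold, Cd80 1.57-fold, Pvr 1.66-fold and Nectin2 1.68-fold higher in Ly6c2 macrophages, each in 6 of 6 libraries. None of the 4 reached the 2-fold limit, and over all genes 1.56% were called higher and 5.24% lower in this state. Among 10 other ligands, Ceacam1, which binds TIM-3, was the 1 called higher in Ly6c2 macrophages (21.5 against 8.68 CPM, 2.47-fold). Cd274 was 1.56-fold higher there in the pool and in 5 of 6 libraries.

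The ligands did not all run the same way between the Rsad2 and Ly6c2 states. Cd274 and Lgals9 were higher in Rsad2 macrophages in 6 of 6 libraries, by 1.42-fold and 1.49-fold. Cd80, Cd86, Nectin2 and Vsir were lower in Rsad2 macrophages in 6 of 6 libraries, with ratios of 0.581, 0.699, 0.711 and 0.658. Pvr was lower as well, with ratios of 0.533 to 0.742 inside the 6 libraries. Cd40 was higher in 5 of 6 libraries, with a pooled ratio of 1.11. Icosl, with 21 UMIs in Rsad2 macrophages, had a ratio of 0.487 and was higher in 1 of 6 libraries. Of these UMIs 11 were from suffix 5, and without it the level in Rsad2 macrophages was 1.34 CPM, the ratio was 0.288, and Icosl was called lower in Rsad2 macrophages than in the others. All of these ratios but that of Icosl were below 2-fold in either direction.

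Cd80 was also 1.69-fold higher in Mmp12 macrophages than in the other macrophages, in 6 of 6 libraries, at 29.1 to 48.2 CPM. No ligand was called in the Mmp12 state, where 1.02% of all genes were called higher and 1.62% lower. Icosl was low in all 4 macrophage states, with 289 UMIs in all macrophages, and was at 6.13 CPM in C1qa and 2.52 CPM in Rsad2 macrophages. Vsir lay between 88.3 and 109 CPM in the macrophages of all 6 libraries.

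**Figure D2:**
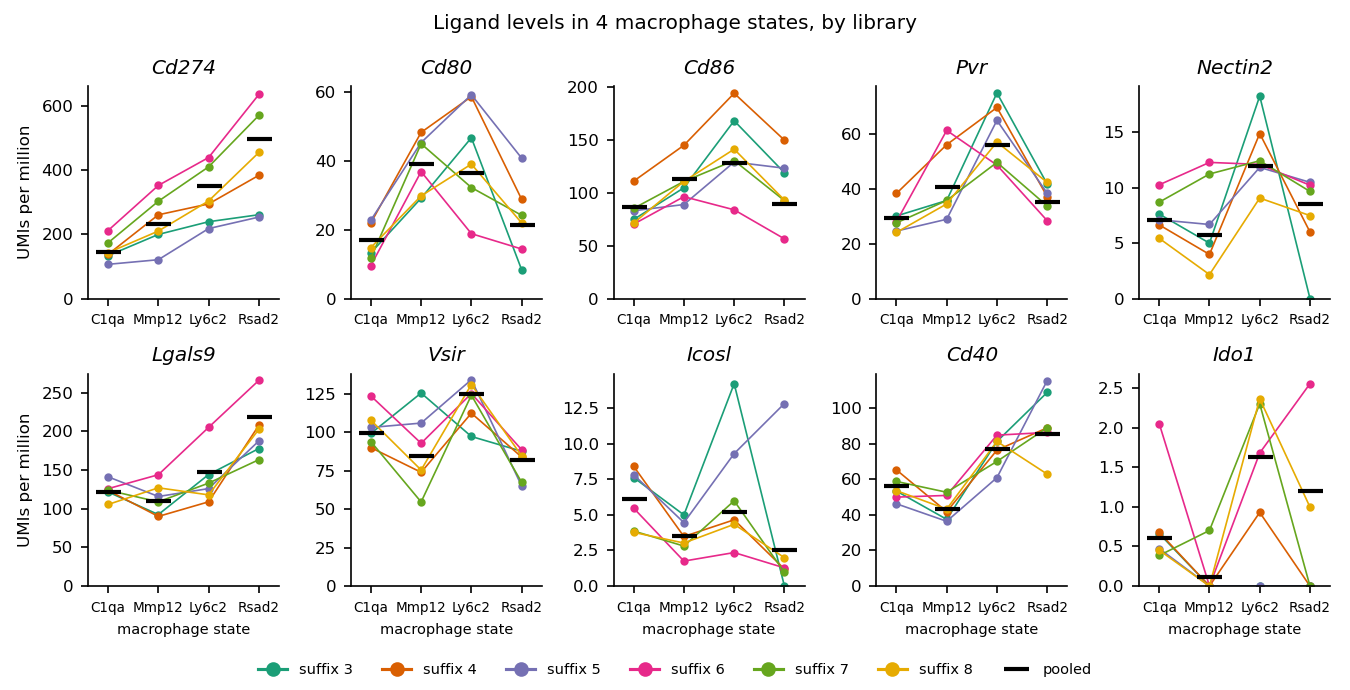
Levels of the 10 ligand genes (UMIs per 1000000 UMIs, vertical axes, each from 0) in the 4 macrophage states, with 1 colored line per library and black bars for pooled values. Cd274 climbed from C1qa to Rsad2 macrophages in each library, Lgals9 and Cd40 had their highest pooled level in Rsad2 macrophages (the highest of the 4 in 6 and 5 libraries), and Cd86, Pvr, Nectin2 and Vsir had theirs in Ly6c2 macrophages (5 libraries each).

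Mature dendritic cells are antigen-bearing cells on their way to the lymph node, and Cd80 was higher in them than in macrophages. In the gated group Cd80 was at 73.0, 170, 19.4 and 85.8 CPM in the 4 libraries with at least 10 barcodes (suffixes 4, 5, 6 and 8), against 31.3, 37.1, 16.9 and 23.2 CPM in their macrophages. Pooled, Cd80 was 3.22-fold higher than in macrophages (82.4 against 25.6 CPM, interval 2.62 to 3.92) and was called. The suffix 6 library was the lowest in both groups, and Cd80 was still called without it. Lgals9 was 2.04-fold lower (67.0 against 137 CPM) and Vsir 2.19-fold lower (45.4 against 99.5 CPM), both in 4 of 4 libraries and both called. The Lgals9 call was lost without suffix 3 or without suffix 6, and both calls were lost when barcodes meeting several gates were kept. Over 11734 genes, 5.15% were called higher and 9.89% lower in this comparison.

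Restriction to the 49 barcodes without Cd3e and Ncr1 moved each of these pooled values further from macrophages. Cd80 was then at 298 and 24.5 CPM in the 2 libraries with 10 or more such barcodes (suffixes 5 and 6) and at 179 CPM pooled (80 UMIs), against 25.6 CPM in macrophages (interval of the ratio 5.52 to 8.77). Cd86 was at 258 CPM (115 UMIs), 2.58-fold higher than in macrophages (99.8 CPM). Pvr was 2.72-fold higher at 103 CPM and Nectin2 3.37-fold higher at 26.9 CPM, the latter on 12 UMIs, of which 6 were from suffix 4, and 2.16-fold higher without that library. These 4 genes were called higher on those 2 libraries, which held 22 of the 49 barcodes, and Lgals9 and Vsir were called lower. The direction of Nectin2 rested on 1 UMI in suffix 5 (10.6 against 8.89 CPM in macrophages) and 3 UMIs in suffix 6. That of Cd80 in suffix 6 rested on 2 UMIs. Over 11679 genes 7.84% were called higher and 31.3% lower, so a call lower was common here.

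Few Lgals9 and Vsir UMIs were left in the restricted mature dendritic barcodes. Lgals9 had 6 UMIs (13.4 CPM, interval 4.93 to 29.2) and Vsir 3 UMIs (6.72 CPM, interval 1.39 to 19.6), which were 10.2-fold (interval 4.67 to 27.7) and 14.8-fold (interval 5.06 to 71.8) below macrophages. Lgals9 was at 8.57 CPM without suffix 8 and Vsir at 2.99 CPM without suffix 4, and both were called lower without suffix 3, 4, 7 or 8. Leaving out suffix 5 or 6 left 1 library with 10 or more of these barcodes, and what passed the rule there is not used as a call. In NK barcodes Lgals9 was at 54.0 CPM and Vsir at 38.6 CPM, above both of these levels. Cd274 was at 475 CPM (interval 413 to 543), near the pooled level of Rsad2 macrophages, and Cd40 was at 202 CPM, 3.26-fold higher than in macrophages. Cd40 was higher in 1 of the 2 libraries and lower in the other, and Cd274 was higher in both, 1.91-fold in the pool, 3.84-fold in suffix 5 and 1.37-fold in suffix 6. Cd274 was called higher without suffix 4 or 7. Without suffix 6, Cd274, Cd40 and Icosl passed the rule as higher, on suffix 5 alone. Icosl had 9 UMIs (20.2 CPM, 4.07-fold above macrophages, and 2.66-fold without suffix 8). In the gated group Cd274 was not set apart from macrophages, at 173, 324, 374 and 413 CPM in suffixes 4, 5, 6 and 8 against 192, 144, 465 and 230 CPM. It was higher in 2 of these 4 libraries, with a pooled ratio of 1.16 (288 against 248 CPM).

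The same barcodes held other genes of T cell control. Pdcd1lg2, which encodes the second PD-1 ligand, was at 204 CPM against 38.8 CPM in macrophages, and at 186 against 25.8 CPM without suffix 6. Of 10 other checkpoint and costimulatory ligands compared, it was 1 of 3 called higher, beside 7.84% of all genes. Nectin1 was another, at 47.0 against 7.16 CPM. Of the same 10, 4 were called lower, among them Sirpa, the receptor of CD47, at 73.9 against 456 CPM (44.8 against 473 CPM without suffix 4), beside the 31.3% of all genes that were called lower here. Cd70, a ligand of CD27, was at 33.6 CPM against 0.0514 CPM in macrophages (35.6 against 0.0200 CPM without suffix 6), with too few UMIs for a call. Il4i1, an amino acid oxidase that makes ligands of the Ahr receptor, was at 475 CPM against 3.05 CPM in macrophages. Ccl22, a chemokine for regulatory T cells, was at 1026 CPM against 2.57 CPM (1136 against 1.63 CPM without suffix 4). Il4i1 and Ccl22 are also among the marker genes used to check the label of this group. Of 12 NF-κB and maturation genes, 10 were called higher and none lower, beside 7.84% of all genes called higher and 31.3% lower. Their median ratio was 4.78 beside a median of 0.765 over all genes. Ccl22 and Relb among these 12 are also marker genes of the group. Of 13 type I interferon genes compared, none was called higher and 9 lower, with a median ratio of 0.426. Without suffix 4 there were 10 lower with a median ratio of 0.278, and without suffix 5, on suffix 6 alone, 6 passed as lower with a median ratio of 0.531. In the gated group 7 of the 13 were called lower, with a median ratio of 0.485, where 9.89% of all genes were called lower, and 4 without suffix 6. Gated type 1 dendritic barcodes were alike, with 7 called lower, none higher and a median ratio of 0.453, beside 7.04% of all genes called lower. Without suffix 6 there were 2. Of 12 type II interferon genes, 1 was called higher and 5 lower in restricted mature dendritic barcodes, beside 7.84% and 31.3% of all genes.

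Type 1 dendritic cells, which present antigen to CD8 T cells, held less Cd274 than macrophages. In the gated group Cd274 was at 165, 75.3, 257 and 143 CPM in the libraries with suffixes 4, 5, 7 and 8, below the macrophages of the same library each time. This gated group was the one that held more macrophage than type 1 dendritic markers, whose part in these values was not tested. Pooled it was at 158 against 248 CPM, 1.57-fold lower, and after restriction at 104 CPM (64 UMIs), 2.40-fold lower (interval 1.88 to 3.11). Cd86 was at 121 CPM gated and at 188 CPM restricted, against 99.8 CPM in macrophages. Nectin2 had 6 UMIs in the gated group and was the one ligand called, lower, where 5.14% of 11745 genes were called higher and 7.04% lower. Of these UMIs 4 were from suffix 4, without which the level went from 3.02 to 1.49 CPM, and the call was lost when barcodes meeting several gates were kept. Lgals9, on 139 UMIs, was 1.96-fold lower than in macrophages in 4 of 4 libraries (69.9 against 137 CPM), and it was called without suffix 4, without suffix 8 and with at least 2000 UMIs and at most 5% mitochondrial UMIs. Without barcodes holding other lymphocyte genes Cd274, Nectin2, Lgals9 and Cd40 passed the rule as lower, but that left 35 barcodes and no library with 10 or more, so no library's direction could be compared and these calls are not used. Without the 5% of barcodes with most UMIs Nectin2 and Cd40 were called lower. No Nectin2 UMI was left after restriction, which allows up to 4.85 CPM by 3 counts, against 7.98 CPM in macrophages. In the restricted group Cd274, Nectin2, Lgals9, Vsir and Cd40 passed the rule as lower, but it had 10 or more barcodes in 1 library only, so these calls are not used.

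Between the dendritic groups after restriction, Cd80 was at 179 CPM in mature and 35.6 CPM in type 1 barcodes, and Cd40 at 202 and 22.6 CPM. Cd40 was higher in the mature group in 6 of 6 libraries and Cd80 in 5, and in suffix 6 Cd80 was lower there (24.5 against 60.9 CPM, on 2 and 5 UMIs). Lgals9 was at 13.4 and 55.0 CPM and Vsir at 6.72 and 38.8 CPM, both lower in the mature group in 6 of 6 libraries. Single libraries held 3 to 12 mature and 4 to 12 type 1 barcodes. Of 6 kynurenine pathway genes compared, 4 (Kmo, Kynu, Haao and Ahr) were called higher in gated type 1 barcodes than in macrophages and none lower, beside 5.14% of all genes called higher. These gated barcodes held more macrophage than type 1 dendritic markers. After restriction the same 4 genes were above macrophages, and Il4i1 was below them. Higher levels were not particular to type 1 barcodes. In restricted mature dendritic barcodes 3 of the 6 (Kynu, Haao and Il4i1) were called higher than in macrophages and none lower, beside 7.84% and 31.3% of all genes. In restricted neutrophil barcodes 3 (Kmo, Kynu and Haao) were called higher and none lower, beside 3.81% and 12.6%. After restriction Kmo, which acts downstream of IDO1, was at 66.3 CPM and the receptor gene Ahr at 173 CPM in type 1 barcodes, against 11.2 and 33.6 CPM in mature ones. Kmo was higher in type 1 barcodes in 5 of 6 libraries, and 4 of its 5 UMIs in mature ones were from suffix 6, without which it was at 2.74 CPM there. Il4i1, a mature dendritic marker, was at 475 CPM in mature barcodes and had no UMI in type 1 barcodes (up to 4.85 CPM by 3 counts).

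Neutrophil barcodes without Cd3e and Ncr1 held more Cd274 than macrophages in each of the 3 libraries with at least 10 of them. In the gated group Cd274 was at 180, 213, 197, 578, 347 and 307 CPM in suffixes 3 to 8, above the macrophages of the same library in 6 of 6. The pooled ratio was 1.45 (359 against 248 CPM, intervals 348 to 370 and 244 to 252 CPM), above the 1.05 to 1.37 of the single libraries, and no ligand was called, while 2.84% of 12031 genes were called higher and 0.441% lower. Without suffix 6 the ratio was 1.40. Most of these barcodes were the mixed ones described above, which had 321 CPM of Cd274. In the 116 restricted barcodes Cd274 was at 1044, 882 and 610 CPM in the 3 libraries with 10 or more of them (suffixes 6, 7 and 8), and at 785 CPM pooled (734 UMIs, interval 730 to 844). This was 3.16-fold above macrophages (interval 2.93 to 3.41) and was called, among 3.81% of 11670 genes called higher and 12.6% lower. These 3 libraries held 101 of the 116 barcodes, and their own ratios to macrophages were 2.25, 3.06 and 2.65, each below the pooled one. The libraries with suffixes 3, 4 and 5 had 6, 5 and 4 such barcodes, with 118, 285 and 467 CPM, the first below its macrophages at 172 CPM. Restricted neutrophils were above both restricted mature dendritic barcodes and Rsad2 macrophages in suffixes 6, 7 and 8. In suffixes 3 and 5 restricted mature dendritic barcodes were higher (608 and 553 CPM), and in suffixes 3 and 4 Rsad2 macrophages were higher (261 and 384 CPM), so the pooled order rests on suffixes 6 to 8. These barcodes also held macrophage markers at 3256 CPM and monocyte markers at 2774 CPM, whose part in the Cd274 level was not tested.

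No other ligand was called in restricted neutrophil barcodes, though Icosl, whose 2 UMIs there were both from suffix 7, was called lower without that library. Cd80 was 1.84-fold higher than in macrophages (47.1 against 25.6 CPM, 3 of 3 libraries), and Vsir and Cd40 were at 0.817 and 0.883 of the macrophage level, lower in 3 of 3 libraries. Lgals9 was at 141 against 137 CPM. Of 13 type I interferon genes 4 were called higher in restricted neutrophil barcodes and none lower, among them Ifit1 at 240 against 65.0 CPM. Suffix 6 gave 41 of these 116 barcodes but 533 of the 3996 macrophages. Without it the same 4 genes (Isg15, Ifit1, Ifit2 and Cmpk2) were called, with Ifit1 at 113 against 48.6 CPM, and the list's median ratio was 1.35. Of 12 NF-κB and maturation genes 3 were called higher and 1 lower, among them Tnfaip3, an inhibitor of NF-κB signaling, at 874 against 378 CPM. Without suffix 6, Tnfaip3 was at 736 against 352 CPM, and 4 of the 12 were called higher. Over all genes 3.81% were called higher and 12.6% lower, so the 1 call lower is near the share of all genes.

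B barcodes were few, with 10 or more in 1 library only, and calls in them are not used. Icosl had 5 UMIs in the 36 restricted barcodes (30.1 CPM, interval 9.77 to 70.2), against 4.95 CPM in macrophages. Of these, 3 were from suffix 5, and the level was 16.4 CPM without it. Cd86 was at 108 CPM (18 UMIs). Vsir had 1 UMI and Nectin2 none. Cd40, a constitutive B cell gene, had 8 UMIs (48.1 CPM, interval 20.8 to 94.8), of which 6 were from the 4 barcodes of suffix 6, and was at 13.8 CPM without that library.

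**Figure D3:**
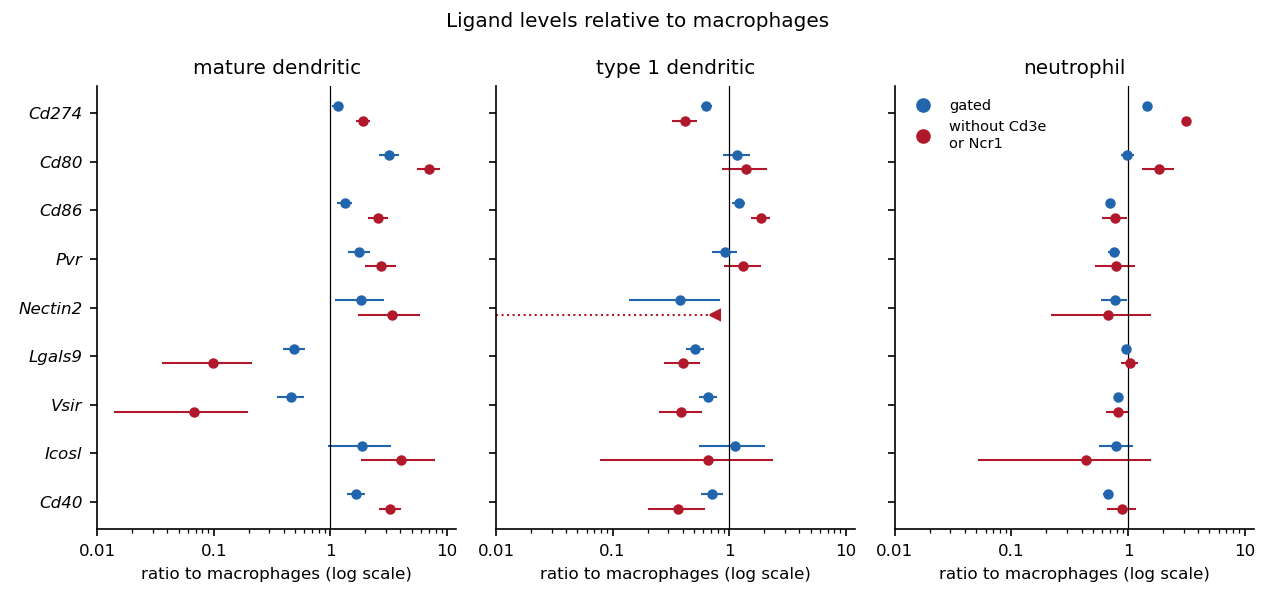
Ratio of the pooled level in mature dendritic, type 1 dendritic and neutrophil barcodes to that in macrophages (horizontal log axis) for 9 ligand genes, with 95% counting intervals, for the gated barcodes (blue) and those without Cd3e or Ncr1 (red). Restriction moved Lgals9 and Vsir down to 0.0983 and 0.0675 of the macrophage level in mature dendritic barcodes, and Cd274 up to 3.16-fold in neutrophils; the triangle marks the upper bound for Nectin2, with no UMI in restricted type 1 dendritic barcodes.

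Free RNA in droplets puts some UMIs of abundant genes into cells that do not make them, and NK barcodes served as the comparison. The NK gate left out every barcode with a Csf1r or Adgre1 UMI, so it selected against macrophage RNA. The NK values therefore cannot stand for the free RNA level in the other groups and are given as a description. At 2000 UMIs per barcode, 35.5% of 3986 macrophages held a Cd274 UMI (exact interval 34.0 to 37.0%), against 16.1% of 248 NK barcodes (interval 11.8 to 21.3%). Without thinning the shares were 76.2% and 44.4%, at median depths of 12570.5 and 7867 UMIs. Among restricted barcodes the share was 61.5% of 109 neutrophils (interval 51.7 to 70.6%) and 68.1% of 47 mature dendritic barcodes (interval 52.9 to 80.9%). Cd86 was at 1.58 CPM in NK barcodes and 99.8 CPM in macrophages, a wider gap than that of Cd274, at 75.7 and 248 CPM. The 2 genes therefore stood in different proportion in NK barcodes and macrophages, and the part of free RNA in the NK level of Cd274 was not tested. In gated type 1 dendritic barcodes the share with Cd274 was 18.7% (interval 10.6 to 29.3%) and in B barcodes 10.5% (interval 2.94 to 24.8%), and after restriction 25.0% of 40 (interval 12.7 to 41.2%) and 20.7% of 29 (interval 7.99 to 39.7%). All 4 intervals overlapped that of NK barcodes, where the pooled level was 75.7 CPM (interval 65.4 to 87.2). The gated groups were above this level. Type 1 dendritic barcodes were at 158 CPM (interval 141 to 177) and B barcodes at 136 CPM (interval 101 to 181). After restriction type 1 dendritic barcodes were at 104 CPM (interval 79.7 to 132), which overlapped the interval of NK barcodes. Restricted B barcodes were at 156 CPM (interval 102 to 229), above that interval. Of their 26 UMIs, 14 were from the 6 barcodes of suffix 8, and the level was 89.9 CPM without that library, so this order rests on suffix 8.

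Cd274 followed the interferon genes of single macrophages. Each macrophage was thinned to 2000 UMIs and ranked within its library by its UMIs of 25 interferon response genes (13 type I and 12 type II, none of them a ligand of the set and without Rsad2), and the ranking was divided into 5 bins of 796 to 800 barcodes. From the lowest to the highest bin Cd274 was at 139, 184, 237, 286 and 410 CPM. In the lowest bin the 6 libraries were at 116, 146, 65.5, 229, 123 and 139 CPM. In the highest bin they were at 258, 339, 274, 743, 457 and 399 CPM. Every library was higher in its top bin, and each top value exceeded the highest bottom value.

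The pooled ratio of top to bottom was 2.94 (interval 2.78 to 3.11), 2.21 to 4.19 within libraries, and it was called. Without suffix 6 it was 2.96. Over 10277 genes, 2.24% were called higher and 0.769% lower along this ranking. The bins had similar depth, with median UMIs between 11413 and 13391. Over the 3986 macrophages the Spearman correlation of thinned Cd274 UMIs with the interferon score was 0.270, and 0.184 to 0.286 within libraries, a description over cells that share libraries and sparse counts.

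Cd40 was the other ligand called. It was at 31.8, 46.6, 54.4, 65.1 and 116 CPM from the lowest to the highest bin, a ratio of 3.65 (interval 3.25 to 4.11). In the top bin the 6 libraries lay between 112 and 122 CPM, far closer together than for Cd274. Cd86 was 1.49-fold (85.5 to 128 CPM) and Lgals9 1.55-fold (110 to 170 CPM) higher in the top bin, each in 6 of 6 libraries but below the 2-fold limit. Nectin2 was 1.62-fold (interval 1.19 to 2.22, 6.08 to 9.85 CPM) and Icosl 1.63-fold (interval 1.06 to 2.52, 3.26 to 5.30 CPM) higher, each in 5 of 6 libraries and not called. Cd80 had a ratio of 0.983 (interval 0.838 to 1.15) and Pvr of 1.13 (interval 0.983 to 1.29), with libraries on both sides of 1. Vsir had a ratio of 0.886 and was lower in 5 of 6 libraries.

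**Figure D4:**
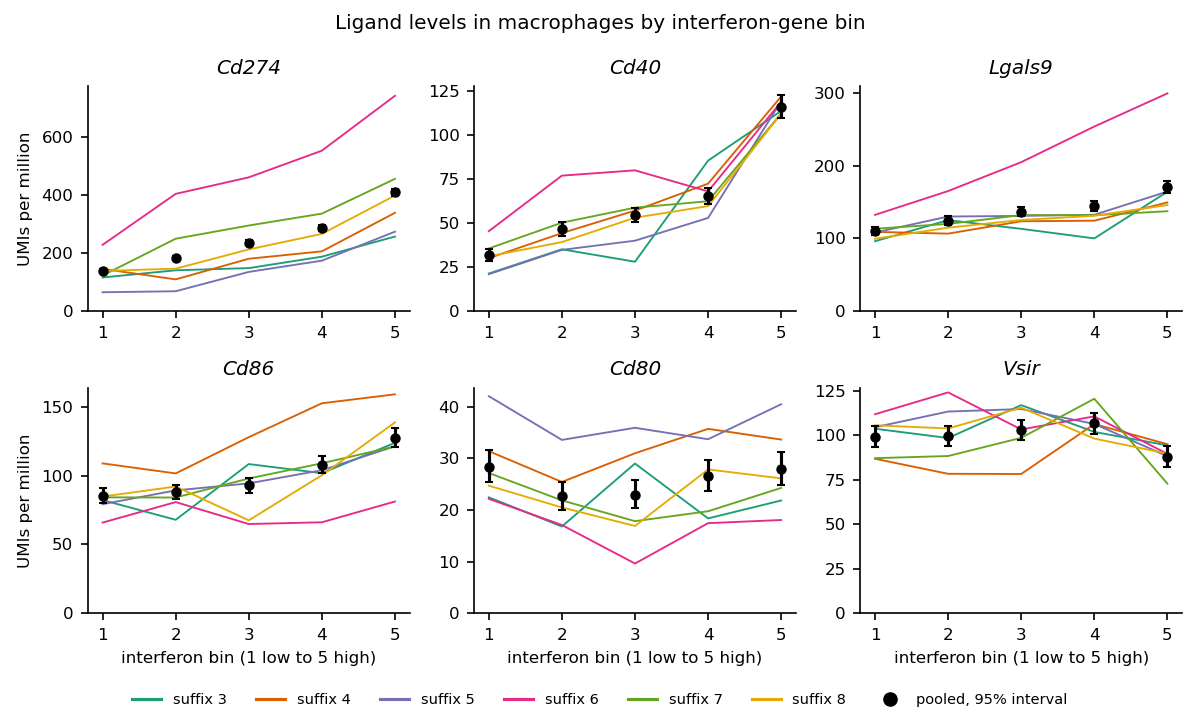
Levels of 6 ligand genes (UMIs per 1000000 UMIs, vertical axes from 0) in macrophages of 5 bins of rising interferon-gene UMIs (horizontal axis). Colored lines are libraries and black points pooled values with 95% Poisson intervals; Cd274 went from 139 to 410 CPM and Cd40 from 31.8 to 116 CPM, while Cd80 stayed between 22.6 and 28.4 CPM.

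The ranking was repeated with each interferon list alone. Type I interferons are made by most cells on sensing nucleic acids, type II (interferon-γ) by T and NK cells, and many genes of both lists answer to either. Cd274 had a top to bottom ratio of 2.15 (interval 2.04 to 2.27) along the type I list and 2.53 (interval 2.39 to 2.68) along the type II list, in 6 of 6 libraries each time. Cd40 had ratios of 2.88 (interval 2.58 to 3.22) and 3.09 (interval 2.76 to 3.47).

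Lgals9 separated the lists. It had a ratio of 2.08 (95.3 to 198 CPM, interval 1.94 to 2.24, 6 of 6 libraries) along the type I list and of 1.03 (125 to 129 CPM, interval 0.961 to 1.11, 3 of 6 libraries) along the type II list. Inside each of the 4 states the type I ratio was 1.37 to 2.08, in 6 of 6 libraries each time, and the type II ratio was 0.880 to 1.08. Nectin2 had ratios of 1.08 (interval 0.790 to 1.48) and 1.58 (interval 1.18 to 2.12) along the type I and type II lists.

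Cd274 was also higher in the top bin inside each macrophage state. With bins drawn within a state the ratio was 3.02 in C1qa macrophages, where Cd274 went from 83.2 to 251 CPM. It was 2.46 in Ly6c2, 1.77 in Rsad2 and 1.87 in Mmp12 macrophages, higher in 6 of 6 libraries in every state. Single-library bins held as few as 6 barcodes there. The lowest bin of Rsad2 macrophages held 360 CPM of Cd274 and the highest bin of C1qa macrophages 251 CPM, and without suffix 6, which gave 43 of the 129 barcodes of that Rsad2 bin, the levels were 314 and 249 CPM. Library by library this order held in 4 of 6, and in suffixes 3 and 5 the Rsad2 bin was lower (150 against 234 and 105 against 243 CPM, on 9 and 17 barcodes).

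**Figure D5:**
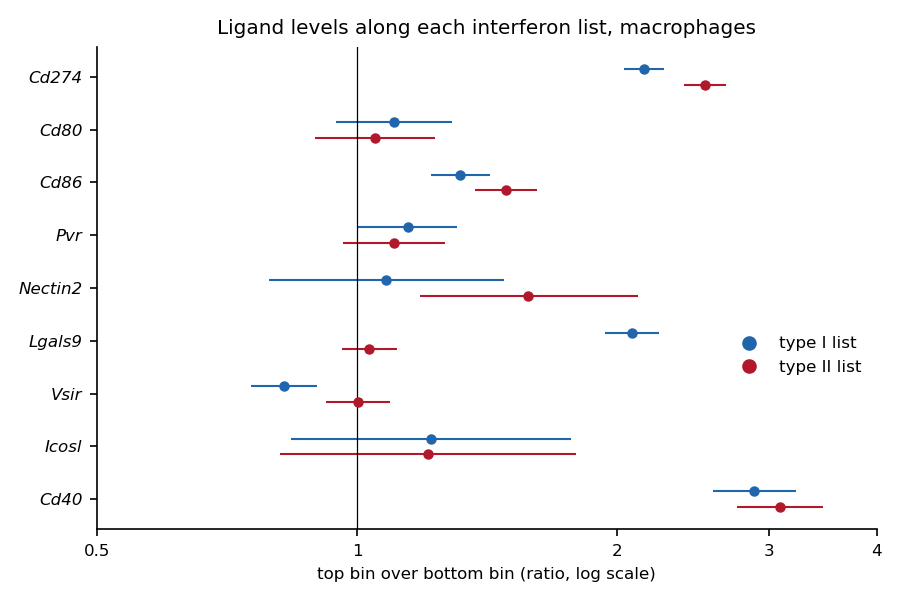
Ratio of the highest to the lowest bin of macrophages (horizontal log axis) for 9 ligand genes, ranked by the type I (blue) or the type II (red) interferon list, with 95% counting intervals. Lgals9 had ratios of 2.08 and 1.03, whereas Cd274 (2.15 and 2.53) and Cd40 (2.88 and 3.09) were above 2 along both.

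The genes whose levels ran most like each ligand were sought over 40 points, each a cell group in 1 library with at least 20 barcodes, among 7772 genes. These points share libraries and cell groups, so the Pearson correlations are descriptions. They included gated neutrophil, NK and T barcodes but no dendritic or B barcodes. A high correlation can thus reflect the gap between myeloid and lymphocyte barcodes. For Cd274 the closest was Irf1, a transcription factor of the interferon-γ response (r = 0.891), followed by Rhou, Tarm1, Gbp2, Grina, Slfn2, Sod2 and Mdm2 (0.886 to 0.869). For Lgals9 they were the interferon-stimulated genes Oasl2 (0.953), Rnf213 (0.944) and Trafd1 (0.939). For Cd86 they were H2-DMa (0.975), Cybb (0.974) and Cd74 (0.973), of which H2-DMa and Cd74 serve antigen loading on MHC class II. For Cd40 they were Batf2 (0.975), Slc8a1 (0.974) and Slamf8 (0.971).

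For Pvr the closest were Plk3, Cebpb and Gm2a (0.916 to 0.905), for Nectin2 C3, Ptpn1 and Abcc3 (0.876 to 0.868), and for Cd80 Ccrl2, AI504432 and Plaur (0.833 to 0.821). For Vsir they were E230029C05Rik, Ctbs and Epn1 (0.885 to 0.867), and for Icosl Ppfia4, Gm50022 and Lyl1 (0.828 to 0.779). Within the 24 points that were macrophage states, the correlation with the closest gene stayed at 0.839 for Cd274 and 0.887 for Lgals9. That correlation was 0.788 for Cd40, 0.762 for Icosl, 0.683 for Pvr, 0.661 for Cd86 and 0.620 for Nectin2. For Cd80 and Vsir the values were 0.421 and 0.357.

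Ido1 was hardly detected. Of its 79 UMIs, 45 were in macrophages, 9 in gated neutrophil barcodes, 1 each in mature dendritic, type 1 dendritic and NK barcodes and 22 in barcodes of no single group. In macrophages this was 0.771 CPM (interval 0.562 to 1.03). Restricted mature dendritic barcodes had no Ido1 UMI, which allows up to 6.72 CPM by 3 counts. Ido2 was at 0.599 CPM and Tdo2 at 0.0514 CPM in macrophages. Ido1 reached 50 UMIs in 1 comparison alone, that of gated neutrophil barcodes (0.789 CPM, and 0.522 CPM without suffix 8) with macrophages, and was not called.

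Of the receptors of these ligands, Icos, Ctla4, Pdcd1 and Cd28 were highest in T barcodes, and others were also found on myeloid groups. In T barcodes (264) Icos was at 489 CPM, Ctla4 at 427 CPM, Pdcd1 at 325 CPM and Cd28 at 302 CPM, against 1.08 to 6.15 CPM for these 4 genes in macrophages. Tigit was at 4.25 CPM and Cd40lg at 21.7 CPM in T barcodes. Havcr2, which encodes TIM-3, was at 59.2 CPM in macrophages, 110 CPM in T barcodes and 163 CPM in restricted type 1 dendritic barcodes. Cd226, which encodes DNAM-1, was at 73.9 CPM in T barcodes and at 61.5 CPM in restricted type 1 dendritic barcodes. In the gated dendritic and neutrophil groups Icos was at 67.9 to 98.9 CPM, and after restriction at 0 to 8.56 CPM. Of 6 receptors compared with macrophages, Pdcd1 was called higher in restricted mature dendritic barcodes, and Ctla4, Cd28 and Havcr2 lower. Over all genes 7.84% were called higher and 31.3% lower there. In restricted neutrophil barcodes Cd28 was the 1 of 6 called higher and none was called lower, beside 3.81% and 12.6% of all genes.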

How the data were processed

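Single-cell RNA libraries of CD45 positive cells from 6 CT26 tumors were read from the deposited matrix, which holds raw UMI counts per gene and barcode made by the authors with the 10x 3′ v3.1 chemistry. The submitters' processing notes name Cell Ranger 1.2, Seurat 3.1.5, R 4.0.1 and mm10. The highest mitochondrial share was 9.99% and the fewest genes in a barcode 280. The 6 library suffixes matched no sample label, so the matrix was treated as 1 pooled sample, and no p-value was computed. Cell groups were rebuilt from marker UMIs, because no cell annotation was used, and the gates are those given with the results. Doublets were not called; barcodes meeting 2 or more gates were left out. Levels are UMIs of a gene per 1000000 UMIs of the group, with exact Poisson intervals at 95%, ratios with exact conditional intervals, and shares with exact Clopper-Pearson intervals. These cover counting error only. A gene was compared when it had at least 50 UMIs in both groups together and called by the 2-fold rule with 10 barcodes per library. Interferon scores and shares used barcodes thinned to 2000 UMIs. Neighbor genes were ranked by Pearson correlation of log2(CPM + 5). The named genes were the 10 ligands, their 3 closest neighbors (8 for Cd274) and members of the listed pathways. The ligands and lists were chosen with earlier results of these data known. Scripts were tested on simulated data. Python 3.11.15, numpy 2.4.6, scipy 1.17.1 and pandas 2.3.3 were used. Alternatives covered weighting, gates, depth, fold limits, interferon lists and leaving out each library.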

Additional observations from a re-analysis of the deposited data

Results flagged for a closer look

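In 7 of 50 sets of 6 library levels (10 ligands in all macrophages and in the 4 states) 1 library lay far from the other 5. The limit used was taken to flag about 1 in 20 such sets by chance, a share that was not estimated for these data. The sets share barcodes, and a set with a single UMI is flagged by construction. The 7 of 50 can therefore not be read against that share. The 6 libraries also hold both treatments in an arrangement that was not assigned. The library with suffix 6 was the highest for Lgals9 in all macrophages (206 CPM) and in Ly6c2 macrophages (205 CPM), and for Ido1 in all macrophages (1.91 CPM) and in C1qa macrophages (2.05 CPM). Cd86 stood highest in C1qa macrophages of suffix 4, at 111 CPM. Icosl stood highest in Rsad2 macrophages of suffix 5, at 12.8 CPM, and Ido1 in Mmp12 macrophages of suffix 7, at 0.702 CPM, where its single UMI in that state was found.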

How the results depend on the processing

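The 10 ratios recomputed (Cd274 in Rsad2 over C1qa macrophages; Cd274 in the 3 cell groups and Cd80, Lgals9 and Vsir in mature dendritic barcodes over macrophages; Cd274, Cd40 and Lgals9 in the top over the bottom interferon bin) stayed on the same side of 1 in 165 values. Of 99 ratios of 9 ligands, 10 with values from 0.883 to 1.12 crossed 1 without 1 library, among them Cd80 in gated neutrophils (1.08 without suffix 4), Lgals9 in restricted neutrophils (0.935 without suffix 6) and in Ly6c2 macrophages (0.991 without suffix 6), and Cd274 in Mmp12 macrophages (1.06 without suffix 6). Over the 27 ratios of 9 ligands in 3 cell groups to macrophages, restriction (added after seeing the data) moved 4 across 1, Cd80 (0.990 to 1.84) and Lgals9 (0.953 to 1.03) in neutrophils and Pvr (0.916 to 1.32) and Icosl (1.12 to 0.654) in type 1 dendritic barcodes. The Cd274 ratio of Rsad2 to C1qa macrophages (3.45) was 2.83 with libraries weighted equally, 3.70 without barcodes holding other lymphocyte genes, 4.12 when a state needed a lead of 0.5, 3.20 with states set by raw UMI counts, and 2.94 to 3.59 on leaving out each library. The Cd274 ratio of neutrophils to macrophages (1.45) was 1.22 with libraries and 1.63 with barcodes weighted equally, 1.37 with at least 2000 UMIs and at most 5% mitochondrial UMIs, 1.64 without the 5% of barcodes with most UMIs, 2.59 without other lymphocyte genes, 1.64 with a macrophage gate of 5 UMIs, 3.16 after restriction, and 1.36 to 1.51 on leaving out each library. The Cd274 ratio of interferon bins (2.94) was 2.61 with overlapping gates kept, 2.73 without the deepest 5%, 2.40 at 1000 UMIs, 2.15 and 2.53 with the type I and type II lists alone, 3.80 with bins ranked over all libraries together (added after seeing the data), 2.46, 1.77 and 1.87 within Ly6c2, Rsad2 and Mmp12 macrophages, and 2.64 to 2.96 on leaving out each library. Calls over the 4 states (2) were 10 at a 1.5-fold and 0 at a 3-fold limit, and 2 to 3 on leaving out each library. Calls in mature dendritic barcodes (3) were 1 with overlapping gates kept, 5 without the deepest 5%, 8 without other lymphocyte genes (on 1 library with 10 barcodes), 5 at a 1.5-fold and 1 at a 3-fold limit, 6 after restriction, and 2 to 4 on leaving out each library. Beyond the changed limits, lists and samples themselves, the cause was not tested. No paired analysis was possible between treatments because the tumors' replicate numbers could not be tied to libraries. Cell groups were paired by library, with their direction counted over the libraries. The few dendritic and B barcodes limit what can be compared there.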
